A study of Mus musculus with 59 samples.

Results

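Voltage-gated potassium channels, their auxiliary subunits and the large-conductance calcium-activated potassium (BK) channel are described here in the prefrontal cortex of young mice. The set is a list of 30 gene symbols, among 18088 genes listed for the series. All 30 had a mean normalized count of at least 10 and were among the 16599 genes tested. No measured value enters the rule, but earlier results of the same libraries were known when the genes were listed.

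Messenger RNA was sequenced from the prefrontal cortex of 59 C57BL/6J mice on postnatal day 25. The mice carried a heterozygous Shank3 knock-in allele (HT) or were wild type (WT); the column names of the table carry the prefix L68P, and Shank3 encodes a scaffold protein of excitatory synapses. For 3 weeks, on postnatal days 3 to 24, the pups took in vehicle, the mood stabilizer lithium or the serotonin reuptake inhibitor fluoxetine with the milk of the dam. Genotype, drug and sex made 12 groups, 11 of 5 mice and 1 of 4 mice (WT lithium females), so each of the 6 arms of genotype and drug held 10 mice, or 9 in WT lithium. Litters are not labelled, so all p-values count pups as independent animals. Libraries held 22984556 to 35969254 reads. Shank3 reads do not separate the alleles and so do not check the genotype labels: under vehicle it had a log2 change of -0.03 ± 0.09 in HT against WT mice (limma adjusted p = 0.987).

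Potassium channels set the resting potential, the shape of the action potential and the interval between spikes. Pore-forming Kv subunits assemble as tetramers; silent modifier subunits, cytoplasmic beta subunits and the calcium-binding KChIP proteins join them and change their gating or their transport to the membrane. In the cortex, Kv1 channels hold axonal excitability in check, Kv3 channels allow fast repolarization in fast-spiking interneurons, Kv4 channels carry the transient A-type current of dendrites, and KCNQ channels carry the slow M-current that limits repetitive firing.

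Across the table, lithium had the largest numbers of called genes, and HT and WT mice given the same drug had none. A gene is called here at a limma adjusted p under 0.05, with Benjamini-Hochberg adjustment over all 16599 genes of a comparison. Of the 30 channel genes, lithium changed 6 in HT mice (20%, beside 20.3% of all genes) and 3 in WT mice (10%, beside 12.8%). Fluoxetine changed 2 in WT mice (6.67%, beside 5.66%) and 0 in HT mice (beside 0.277%), and genotype changed 0 under any drug (beside 0%). These shares are near or below those of all genes. Changes below are log2 fold changes ± SE of the normalized count plus 1, averaged over females and males unless a sex is named. Both drug comparisons within a genotype use the same vehicle mice, so their values are set side by side and not counted as separate evidence.

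Several libraries stood apart. The labelled tissue was checked with marker lists: all 8 markers of excitatory cortical neurons were counted in every library, but all 8 olfactory bulb markers were counted too, with Eomes at 0 in 3 libraries and Tbx21 at 0 in 2. An olfactory bulb index (the mean over the 8 markers, each relative to its own mean over all libraries) ran from 0.0686 to 4.29. Its median was 1.198 in WT vehicle, 0.703 in HT vehicle, 0.746 in WT lithium, 0.201 in HT lithium, 0.495 in WT fluoxetine and 0.415 in HT fluoxetine mice. The summed normalized counts of the 8 markers ran from 428 to 9127 in WT vehicle, 318 to 12410 in HT vehicle, 652 to 10262 in WT lithium, 274 to 12110 in HT lithium, 314 to 17079 in WT fluoxetine and 393 to 10346 in HT fluoxetine mice. In 9 libraries the index was above 2.5 or mitochondrial reads were below 5% of the total: HT fluoxetine male 5, HT lithium females 4 and 5, HT vehicle female 1, HT vehicle males 4 and 5, and WT fluoxetine females 1, 2 and 4. Results are given with and without them where they differ. HT vehicle female 1 also had a choroid plexus index of 32.5, against at most 0.76 elsewhere, and WT lithium female 2, not among the 9, a striatum index of 3.49, against at most 2.22 elsewhere. The 3 lithium calls in WT mice held without WT lithium female 2.

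Promoters of 4 genes are printed first, because their genes recur below: Kcnc1, Kcnf1 and Kcnh4 were counted higher with lithium and Kcna4 lower. They are the 250 bases before the RefSeq transcription start, on the gene's strand, in build GRCm38.p6: Kcnc1 at chr7:46396218-46396467 (plus strand), Kcnf1 at chr12:17176889-17177138 (minus strand), Kcnh4 at chr11:100759779-100760028 (minus strand) and Kcna4 at chr2:107290339-107290588 (plus strand). Capitals mark each GC box, GGGCGG or its reverse complement CCGCCC.
Kcnc1: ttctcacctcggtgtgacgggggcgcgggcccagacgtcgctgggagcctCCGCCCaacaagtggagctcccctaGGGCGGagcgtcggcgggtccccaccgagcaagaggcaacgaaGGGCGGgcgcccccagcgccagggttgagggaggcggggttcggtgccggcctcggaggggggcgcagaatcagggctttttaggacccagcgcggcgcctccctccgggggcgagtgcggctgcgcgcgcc
Kcnf1: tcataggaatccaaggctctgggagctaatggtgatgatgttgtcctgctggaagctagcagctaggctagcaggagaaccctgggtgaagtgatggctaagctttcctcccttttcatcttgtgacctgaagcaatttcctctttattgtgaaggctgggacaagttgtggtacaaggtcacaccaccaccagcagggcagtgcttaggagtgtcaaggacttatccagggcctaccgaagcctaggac
Kcnh4: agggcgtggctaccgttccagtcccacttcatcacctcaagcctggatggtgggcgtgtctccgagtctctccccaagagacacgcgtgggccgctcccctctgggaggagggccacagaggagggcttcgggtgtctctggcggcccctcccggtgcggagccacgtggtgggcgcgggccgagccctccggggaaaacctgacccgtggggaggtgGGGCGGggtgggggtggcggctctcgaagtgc
Kcna4: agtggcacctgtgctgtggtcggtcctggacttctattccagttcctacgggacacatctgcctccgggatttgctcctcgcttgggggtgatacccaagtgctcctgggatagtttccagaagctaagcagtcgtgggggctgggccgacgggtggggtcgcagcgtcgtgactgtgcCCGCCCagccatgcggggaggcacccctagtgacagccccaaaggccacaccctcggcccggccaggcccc
The Kcnc1 window was 74.4% G and C with 30 CpG dinucleotides and 3 GC boxes, and the Kcnh4 window 70.8% with 20 CpG dinucleotides and 1 GC box. The Kcna4 window, of the gene that was lower, was 65.2% G and C with 14 CpG dinucleotides and 1 GC box. The Kcnf1 window differed from these at 51.2%, with 1 CpG dinucleotide and 0 GC boxes. Windows were found for 24 of the 30 genes, 37 windows in all, with a median G and C content of 60.8% against 52.4% over all 32851 RefSeq windows. Searched on both strands, the GC box was in 18 of the 37 windows and in 32.7% of all windows. The cAMP response element TGACGTCA (1.5% of all windows), the Egr1 motif GCGTGGGCG (0.5%) and the TATA box TATAAA (12.4%) were in 0 of the 37. The letters GCGTGGGCG and GGGCGG can overlap in part. The matches are letters in a window, not sites.

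Without drug, WT mice expressed the set over a wide range. Levels between genes are compared as normalized count per kilobase of the longest annotated transcript, mean ± SD over the 10 WT vehicle mice. The most abundant was Kcnab2, the Kv beta subunit that binds Kv1 channels in axons, at 2391 ± 287 per kb. The KChIP gene Kcnip3 followed at 1469 ± 102 and the EAG-family (ELK) channel gene Kcnh3 at 1358 ± 246 per kb, and these neighbours overlapped within their SDs. Kcnf1, which encodes a silent Kv5 subunit that forms no channel alone and modifies Kv2 channels, was next at 1169 ± 70.3 per kb. The BK channel gene Kcnma1 stood at 811 ± 55.7 per kb, next to Kcnip2 at 801 ± 88.6 and Kcnip4 at 796 ± 94.4, closer to each other than their SDs. The least abundant was Kcnb2, a Kv2 pore-forming subunit, at 73.9 ± 11.7 per kb, with the Kv1 gene Kcna3 at 101 ± 21.5 and the silent subunit gene Kcns1 at 119 ± 23.2 per kb. Only the longest transcript of each gene sets these lengths, 1.9 kb for Kcna3 and 14.8 kb for Kcnb2. Before division by length, the mean normalized count of Kcnb2 (1097) was above those of Kcna3 (192) and Kcns1 (323).

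**Figure D1:**
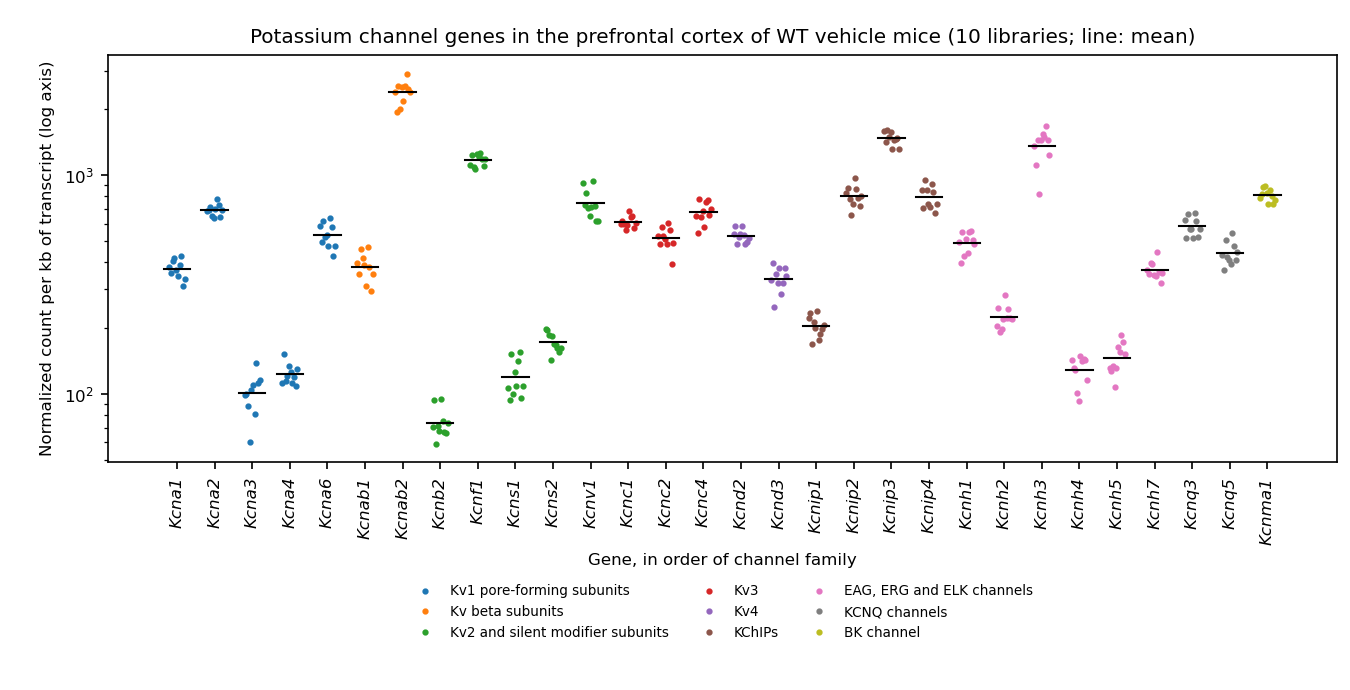
Normalized count per kilobase of the longest transcript (log axis) for the 30 genes in the 10 WT vehicle libraries, coloured by channel family; points are libraries and lines are means. Kcnab2 is highest at a mean of 2391 per kb and Kcnb2 lowest at 73.9 per kb.

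The spread between WT vehicle mice differed by gene. The coefficient of variation of the normalized count was 6.01% for Kcnf1, 6.24% for Kcna2 and 6.32% for Kcnc1, and reached 21.3% for Kcna3, 19.5% for Kcns1 and 18.1% for Kcnh3. Within families the order of levels was uneven. Among the Kv3 genes, Kcnc4 (676 ± 78.1 per kb), Kcnc1 (612 ± 38.7) and Kcnc2 (516 ± 59.6) were within 1.5 times of each other. Among the Kv1 genes Kcna2 (691 ± 43.1 per kb) was above Kcna6 (533 ± 68.3), Kcna1 (373 ± 37.0) and Kcna4 (123 ± 13.2). In bulk tissue, fewer cells of a type and less RNA per cell cannot be told apart.

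Exons of 5 members overlap a tested gene on the opposite strand: Kcna6 with Gm26673, Kcnd3 with Kcnd3os, Kcnip4 with 5730480H06Rik, Kcnh3 with Mcrs1 and Kcnh7 with Gca. The library kit marks strand, but the strand setting of the counting is not given in the sources used here, so values of these 5 genes are uncertain to that extent.

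In HT mice lithium changed 6 of the 30 channel genes (20%), 4 higher and 2 lower, beside 20.3% of all 16599 genes (10.9% higher and 9.43% lower). The share is close to the background. Kv3 genes Kcnc1 and Kcnc4, the silent subunit gene Kcnf1 and the ELK channel gene Kcnh4 rose by 0.15 to 0.36 on the log2 scale; the Kv1 gene Kcna4 and the KChIP gene Kcnip4 fell by 0.27 and 0.25. The median change of the 30 genes was 0.07, with 22 above 0, against 0.00 over all genes. In WT mice lithium changed 3 of the 30 (10%), all higher, Kcna1, Kcnf1 and Kcnc1, beside 12.8% of all genes (7.66% higher and 5.11% lower). The median there was 0.03, with 16 genes above 0.

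Kcnc1 (ENSMUSG00000058975, GRCm38 chromosome 7, 46396497 to 46438704, plus strand) encodes a Kv3 pore-forming subunit of fast-spiking neurons. Its lowest, median and highest normalized counts were 4097, 4550 and 4992 in HT vehicle mice and 4824, 5431 and 5820 in HT lithium mice. All 10 lithium mice lay above the vehicle median, and 9 of 10 above the highest vehicle mouse; the exception was HT lithium female 5, the library with 2.70% mitochondrial reads. The change was 0.23 ± 0.05 (limma adjusted p = 0.000169). In WT mice the counts were 4351, 4651 and 5337 under vehicle and 4569, 5422 and 5726 under lithium. The arms overlapped, with 8 of 9 lithium mice above the vehicle median and 5 of 9 above the highest vehicle mouse, and the change was 0.17 ± 0.05 (limma adjusted p = 0.00838). No library decided these calls: with each library left out in turn, the highest limma adjusted p was 0.0007 in HT and 0.0257 in WT mice. In WT mice Kcnc1 did not pass with the trend on transcript length removed (0.08, limma adjusted p = 0.245).

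Kcnf1 (ENSMUSG00000051726, GRCm38 chromosome 12, 17172100 to 17176888, minus strand) was higher with lithium in both genotypes. In WT mice the lowest, median and highest counts were 5121, 5678 and 6044 under vehicle and 5622, 6373 and 6752 under lithium, and 8 of 9 lithium mice lay above every vehicle mouse. The change was 0.17 ± 0.05 (limma adjusted p = 0.0167). In HT mice the counts were 4678, 5640 and 6094 under vehicle and 5342, 6176 and 7011 under lithium. Here 6 of 10 lithium mice exceeded every vehicle mouse and 3 of 10 were below the vehicle median, and the change was 0.15 ± 0.05 (limma adjusted p = 0.026). The HT call ended without HT lithium female 1, female 4 or male 2, or HT vehicle female 3 or male 1 (limma adjusted p up to 0.0801), and with quantile normalization (0.09, limma adjusted p = 0.232). In WT mice the call also ended with quantile normalization (0.14, limma adjusted p = 0.0805) and with the length trend removed (0.14, limma adjusted p = 0.0908).

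Kcnh4 (ENSMUSG00000035355, GRCm38 chromosome 11, 100740376 to 100759942, minus strand) encodes an ELK-type pore-forming subunit of the ether-a-go-go family. Counts in HT mice were 335, 525 and 613 (lowest, median and highest) under vehicle and 457, 702 and 781 under lithium. Above every vehicle mouse lay 8 of 10 lithium mice, and the remaining ones were females 4 and 5, both among the libraries that stood apart. Kcnh4 rose by 0.36 ± 0.10 (limma adjusted p = 0.00548), the largest called change among the 30 genes in HT mice, with a highest limma adjusted p of 0.0206 over 20 libraries left out in turn. In WT mice the counts were 366, 538 and 585 under vehicle and 522, 634 and 681 under lithium. There 7 of 9 lithium mice exceeded every vehicle mouse, but limma gave 0.27 ± 0.10 with an adjusted p of 0.0593.

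Kcna1 (ENSMUSG00000047976, GRCm38 chromosome 6, 126640397 to 126646384, minus strand) encodes a Kv1 subunit of axons and nerve terminals. In WT mice its counts were 1260, 1507 and 1717 under vehicle and 1573, 2011 and 2509 under lithium, with all 9 lithium mice above the vehicle median and 7 above every vehicle mouse. The change of 0.44 ± 0.13 (limma adjusted p = 0.0146) was the largest called change in WT mice, and the highest limma adjusted p with a library left out was 0.0451. In HT mice the counts were 1050, 1445 and 1838 under vehicle and 1285, 1851 and 2135 under lithium. The arms overlapped, with 5 of 10 lithium mice above every vehicle mouse, and limma gave 0.30 ± 0.12 with an adjusted p of 0.0725. The other Kv1 gene of the same axons, Kcna2, stood at 0.13 ± 0.07 in HT and 0.18 ± 0.07 in WT mice (limma adjusted p = 0.158 and 0.0692).

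Kcna4 and Kcnip4 passed as lower in HT mice and were also below 0 in WT mice, and their difference between genotypes did not pass. Kcna4 (ENSMUSG00000042604, GRCm38 chromosome 2, 107290639 to 107298502, plus strand) encodes an inactivating Kv1 subunit. Its counts were 453, 552 and 705 in HT vehicle and 384, 437 and 621 in HT lithium mice, with 6 of 10 lithium mice below every vehicle mouse and 9 of 10 below the vehicle median. Kcna4 fell by 0.27 on the log2 scale (SE 0.09, limma adjusted p = 0.0284). Counts in WT mice were 522, 577 and 732 under vehicle and 406, 494 and 620 under lithium, and limma gave -0.22 ± 0.09 with an adjusted p of 0.12. The HT call ended without HT lithium female 1, female 5 or male 5, or HT vehicle female 1, male 3 or male 4 (limma adjusted p up to 0.0744).

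Kcnip4 (ENSMUSG00000029088, GRCm38 chromosome 5, 48389502 to 49524907, minus strand) encodes a KChIP, the calcium-binding partner of Kv4 channels. Counts were 1582, 2072 and 2382 in HT vehicle and 1403, 1694 and 2005 in HT lithium mice. All 10 lithium mice lay below the vehicle median, 2 of them below every vehicle mouse. Kcnip4 fell by 0.25 on the log2 scale (SE 0.09, limma adjusted p = 0.0286), and the value in WT mice was -0.15 ± 0.09 (limma adjusted p = 0.263). The HT call ended without HT lithium female 4, female 5 or male 3, or HT vehicle female 3, male 1, male 2 or male 3 (limma adjusted p up to 0.062). The Kv4 genes themselves, Kcnd2 and Kcnd3, stood at -0.06 ± 0.06 and -0.08 ± 0.08 in HT lithium mice and did not pass (limma adjusted p = 0.474 and 0.519).

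Kcnc4 (ENSMUSG00000027895, GRCm38 chromosome 3, 107438303 to 107459552, minus strand), another Kv3 gene, had counts of 1669, 2484 and 2722 in HT vehicle and 2168, 2907 and 3230 in HT lithium mice. The lithium arm split, with 7 of 10 mice above every vehicle mouse and 3 below the vehicle median (females 2, 3 and 4). The change was 0.29 ± 0.10 (limma adjusted p = 0.0379), and WT mice gave 0.05 ± 0.11 (limma adjusted p = 0.833). The HT call ended without HT lithium female 1, female 5, male 2, male 3 or male 5, or HT vehicle female 1, male 4 or male 5 (limma adjusted p up to 0.105). The remaining Kv3 gene, Kcnc2, stood at 0.00 ± 0.08 in HT and 0.06 ± 0.08 in WT mice.

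**Figure D2:**
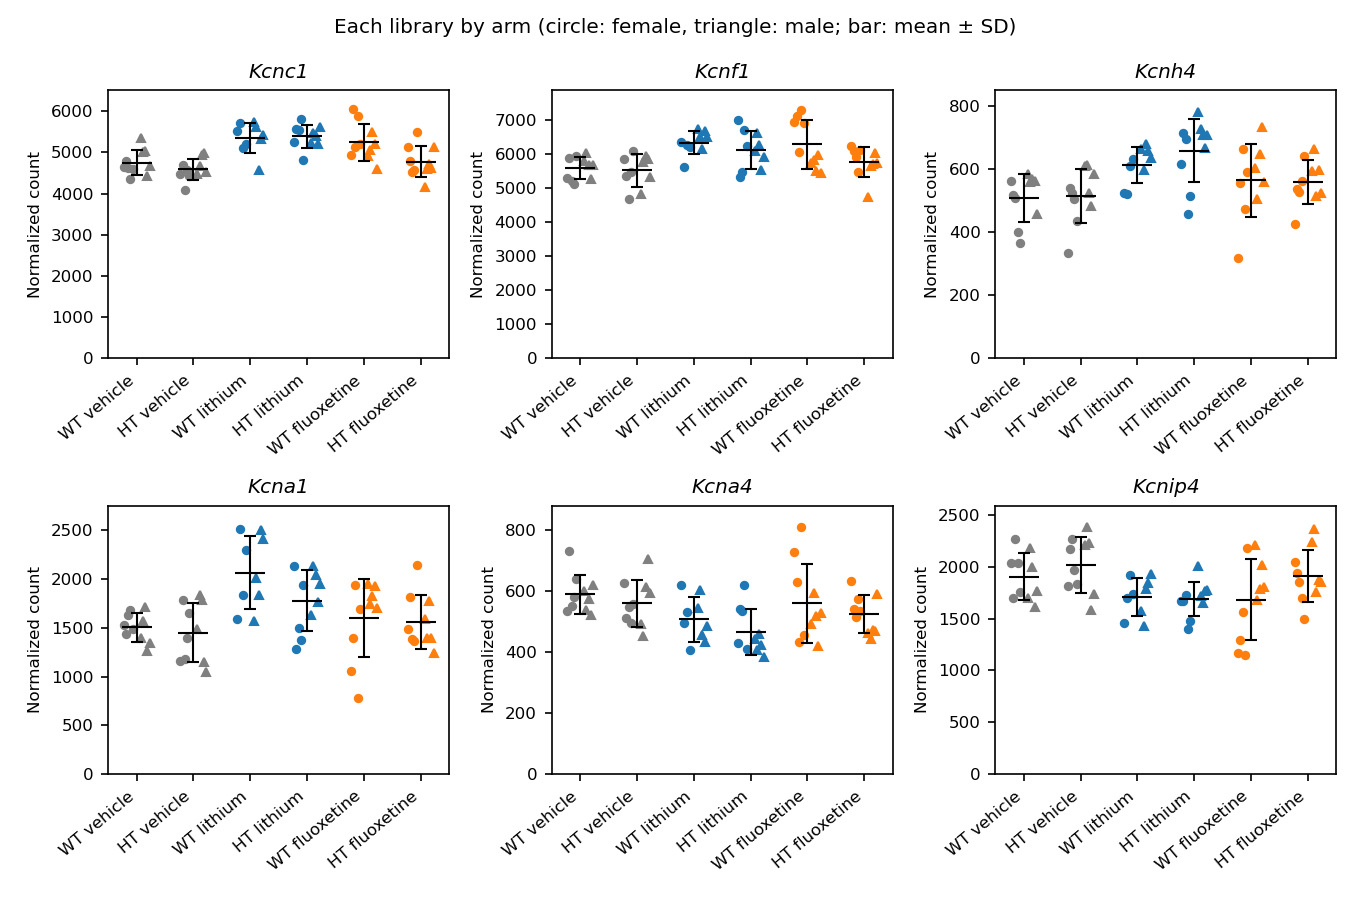
Normalized count in every library for 6 channel genes, by arm of genotype and drug (grey vehicle, blue lithium, orange fluoxetine); circles are females, triangles males, and bars are means ± SD. Kcnc1 and Kcnf1 sit higher under lithium in both genotypes, with HT medians of 5431 against 4550 and 6176 against 5640, and the arms of every gene overlap.

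In none of the 5 comparisons of arms with vehicle mice (either drug in either genotype, and HT against WT) did the arms of any of the 30 genes lie fully apart. Over all 16599 genes this was also rare, at 1.02% for lithium in HT, 0.669% for lithium in WT, 0.00602% for fluoxetine in HT and 0.0542% for fluoxetine in WT mice, and 0% for genotype. The lithium values of HT and WT mice were not shown to differ. The interaction of genotype and lithium changed 0 of the 30 genes by limma, and 0 by edgeR and by DESeq2, beside 0.00602% of all genes by limma. At an unadjusted p under 0.05 it had 0 of the 30, beside 12.2% of all genes. The smallest p-values belonged to Kcnd3 at -0.22 ± 0.12, Kcnc4 at 0.24 ± 0.15 and Kcnh3 at 0.21 ± 0.13 (limma adjusted p = 0.45, 0.517 and 0.528). The 95% interval of the Kcnc4 difference ran from -0.05 to 0.54. In females alone all 3 differences turned direction, to 0.0244 for Kcnd3, -0.0055 for Kcnc4 and -0.0532 for Kcnh3.

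Beside 20.3% of all genes in HT and 12.8% in WT mice, counts within families of 1 to 6 members are a description only. Lithium called 2 of 3 Kv3 genes, 1 of 6 EAG, ERG and ELK genes, 1 of 5 Kv1 genes, 1 of 4 KChIP genes and 1 of 5 Kv2 and silent subunit genes in HT mice. In WT mice it called 1 of 3 Kv3, 1 of 5 Kv1 and 1 of 5 Kv2 and silent subunit genes. Kv beta, Kv4, KCNQ and BK genes had 0 called members in both genotypes. All 6 EAG, ERG and ELK genes lay above 0 in HT mice, at a median of 0.16, against 2 of 6 in WT mice, at a median of -0.03. The KCNQ genes Kcnq3 and Kcnq5, which encode M-current subunits, stood at -0.03 ± 0.10 and 0.09 ± 0.10 in HT mice, and Kcnma1 at 0.05 ± 0.07.

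**Figure D3:**
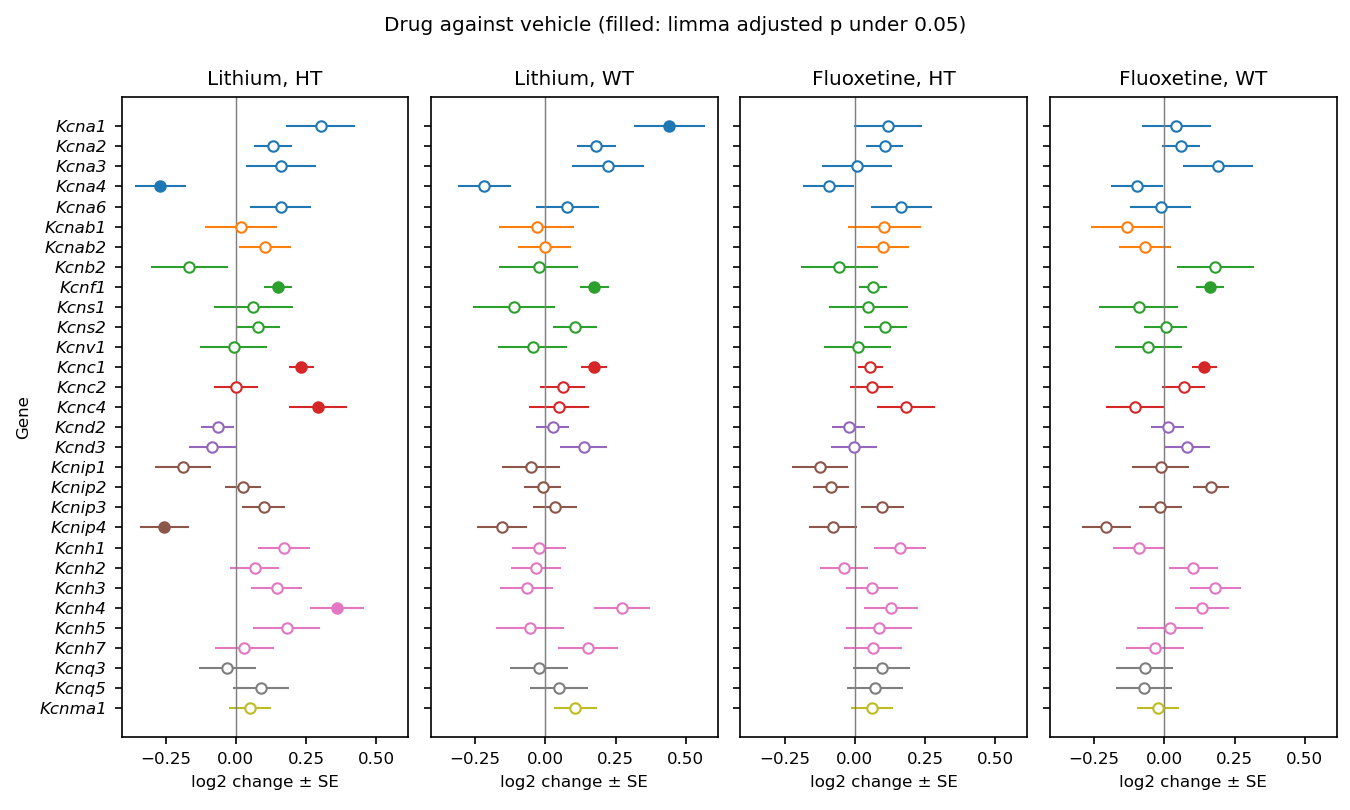
The log2 change ± SE of each of the 30 genes for lithium and fluoxetine against vehicle in HT and in WT mice; filled points have a limma adjusted p under 0.05. The panels hold 6, 3, 0 and 2 filled points, and Kcnf1 and Kcnc1 are filled in 3 of the 4.

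Marker levels of other cell types differed between the arms. The parvalbumin interneuron index (Pvalb, Syt2, Cox6a2 and Tac1, all 4 above 0 in every library) had medians of 0.953 in HT vehicle and 1.17 in HT lithium mice, and 0.949 in WT vehicle and 1.13 in WT lithium mice. The summed counts of its markers ran from 1113 to 2165 and from 1391 to 2561 in the HT arms, and from 1496 to 2184 and from 1642 to 2416 in the WT arms. The striatum index also had higher medians under lithium, with overlapping ranges. They were 0.795 in HT vehicle and 0.985 in HT lithium mice, and 0.896 and 1.007 in the WT arms. The index of general inhibitory neuron markers went the other way, with overlapping ranges. Its medians were 0.935 in HT vehicle and 0.815 in HT lithium mice, and 1.006 in WT vehicle and 0.915 in WT lithium mice. For Sst and Vip, the medians of the index and of the summed counts were both higher under lithium in HT mice, with overlapping ranges. In WT mice they gave no common direction. There the median index was slightly higher under lithium and the median summed count was lower. The index of 6 myelinating oligodendrocyte markers, none at 0 in any library, had medians of 1.10 in HT vehicle and 0.767 in HT lithium mice, with sums of 69638 to 164242 and 47668 to 157246. In WT mice it stood at 1.31 and 1.14, with sums of 84818 to 250020 and 91518 to 167154. In fluoxetine mice its medians were 1.03 in HT and 0.793 in WT mice, with sums of 67005 to 157364 and 53076 to 170414, and those of the parvalbumin index 1.036 and 1.02, with sums of 1301 to 2261 and 828 to 2350. The part of these markers in the lithium and fluoxetine changes of the channel genes was not tested.

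The other voltage-gated subunits and partners were taken as a list of 29 genes, of which 22 were tested. Changes of this list and the next came from the main limma fit alone. Whether they hold under the alternatives used for the 30 genes was not tested. Lithium changed 8 of the 22 in HT mice (36.4%), 5 higher and 3 lower, beside 20.3% of all genes, with a median of 0.07. The largest changes were those of the silent subunit gene Kcng3 (0.60 ± 0.17), the KCNQ gene Kcnq1 (-0.54 ± 0.17) and the silent subunit gene Kcng4 (0.44 ± 0.15), with limma adjusted p-values of 0.0102, 0.0164 and 0.0372. In WT mice 4 of 22 passed (18.2%, median 0.09), 3 higher and 1 lower, beside 12.8% of all genes: Kcnq1 (-0.66 ± 0.17) and Kcng3 (0.57 ± 0.18) were the largest, with limma adjusted p-values of 0.00747 and 0.0262. Of 35 other potassium channel genes (calcium-activated, sodium-activated, inward rectifier and tandem-pore families), 30 were tested. In HT mice 7 of them rose and 1 fell (26.7%, median 0.13), led by the inward rectifier genes Kcnj6 (0.41 ± 0.10), Kcnj14 (0.39 ± 0.12) and Kcnj12 (0.34 ± 0.07), with limma adjusted p-values of 0.00172, 0.019 and 0.000834. In WT mice 6 rose and 0 fell (20%, median 0.04), led by Kcnj6 (0.28 ± 0.10), the sodium-activated channel gene Kcnt1 (0.28 ± 0.06) and the leak channel gene Kcnk9 (0.27 ± 0.08), with limma adjusted p-values of 0.0499, 0.000548 and 0.0143.

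Fluoxetine changed 0 of the 30 channel genes in HT mice by limma, and 0 by edgeR and by DESeq2, beside 0.277% of all genes by limma (0.205% higher and 0.0723% lower). At an unadjusted p under 0.05 it had 0 of the 30, beside 11.6% of all genes. The smallest p-values belonged to Kcnc4 (0.18 ± 0.10), Kcnh1 (0.16 ± 0.09) and Kcna2 (0.11 ± 0.07), with limma adjusted p-values of 0.504, 0.506 and 0.55. In WT mice fluoxetine changed 2 of the 30 (6.67%), both higher, Kcnf1 and Kcnc1, beside 5.66% of all genes (3.54% higher and 2.11% lower). The median of the 30 was 0.00 in WT and 0.06 in HT mice. Of the further voltage-gated list, 2 of 22 rose in WT mice, and of the other potassium channels 1 of 30 rose, Kcnj12 (0.33 ± 0.07). In HT mice 0 of either list passed by limma. There 2 of each list had an unadjusted p under 0.05, beside 11.6% of all genes.

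Kcnf1 counts in WT fluoxetine mice were 5444, 6031 and 7316 (lowest, median and highest) beside 5121, 5678 and 6044 under vehicle, a change of 0.16 ± 0.05 (limma adjusted p = 0.0394). The 5 mice above every vehicle mouse were the 5 females. Kcnc1 counts were 4601, 5162 and 6048 beside 4351, 4651 and 5337, a change of 0.14 ± 0.05 (limma adjusted p = 0.0476), with 3 of 10 above every vehicle mouse. Both calls ended with many single libraries left out: the Kcnf1 call without any of 11 of the 20 libraries (all but WT fluoxetine females 1, 3 and 5, WT fluoxetine males 3 and 5, WT vehicle females 2 and 5, and WT vehicle males 1 and 2; limma adjusted p up to 0.0798), and the Kcnc1 call without any of 13 (all but WT fluoxetine females 1, 3 and 5, WT fluoxetine males 1 and 5, WT vehicle female 2 and WT vehicle male 1; limma adjusted p up to 0.126). With quantile normalization, only the groups compared, or the length trend removed, neither gene passed (limma adjusted p = 0.0772, 0.0555 and 0.0811 for Kcnf1 and 0.108, 0.116 and 0.237 for Kcnc1). The Kcnc1 call also ended with the G and C trend removed (limma adjusted p = 0.13). Without the 9 libraries that stood apart neither gene passed, at 0.12 and 0.11 (limma adjusted p = 0.151 and 0.124). There 4 other channel genes did: Kcna2 (0.21), Kcna4 (-0.31), Kcnh4 (0.29) and Kcnip1, beside 13.8% of all genes. Among the 9 were females 1, 2 and 4 of the 5 WT fluoxetine females, so few females of that group remained.

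In WT mice the response to fluoxetine differed between the sexes for 3 of the 30 genes (10%), 2 higher and 1 lower in females against males, beside 8.66% of all genes (3.58% higher and 5.08% lower). For Kcnf1 the difference was 0.32 ± 0.10 (limma adjusted p = 0.0347): females gave 0.32 and males 0.00. Female counts were 5121 to 5947 under vehicle and 6074 to 7316 under fluoxetine, and male counts were 5276 to 6044 and 5444 to 5988. For Kcnh2, which encodes the ERG channel, the difference was 0.55 ± 0.17 (limma adjusted p = 0.0381). Females gave 0.38 and males -0.17, with female counts of 808 to 1046 under vehicle and 894 to 1431 under fluoxetine, and male counts of 923 to 1195 and 835 to 945. For Kcnma1 the difference was -0.49 ± 0.15 (limma adjusted p = 0.0324). Females gave -0.27 and males 0.22. Female counts were 9499 to 10752 under vehicle and 6775 to 10718 under fluoxetine, and male counts 8870 to 10322 and 10343 to 12533. The 3 genes were picked by the sex test on these same values, so the ranges are a description only.

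The WT fluoxetine females at the ends of these ranges were largely those of high olfactory bulb index. Females 1, 2 and 4 held the 3 highest Kcnh2 counts (1330, 1276 and 1431) and the 3 lowest Kcnma1 counts (7036, 8059 and 6775) of that arm, and their index was 3.71, 2.60 and 4.29. Without the 9 libraries that stood apart, limma called 0 of the 30 genes for sex by fluoxetine, beside 0.108% of all genes. The differences were 0.24 ± 0.12 for Kcnf1, 0.23 ± 0.15 for Kcnh2 and -0.16 ± 0.12 for Kcnma1 (limma adjusted p = 0.256, 0.445 and 0.495). That fit lacked females 1, 2 and 4 of the 5 WT fluoxetine females, so few females of that group remained. With the index as a covariate the 3 differences were 0.28 ± 0.10, 0.28 ± 0.09 and -0.29 ± 0.10 (limma adjusted p = 0.0493, 0.0381 and 0.0455). With the trend on G and C content removed 0 of the 30 genes and 1 of all genes passed, and with only the WT vehicle and fluoxetine groups in the fit 0 of the 30 and 435 of all genes. With each library left out the count of the 30 genes ran from 0 to 11, without the share of all genes in those fits beside it. The calls ended without any of 10 of the 20 libraries for Kcnf1 (limma adjusted p up to 0.074), 10 for Kcnh2 (up to 0.0933) and 8 for Kcnma1 (up to 0.0851). WT fluoxetine females 1, 2 and 4 and male 1, WT vehicle females 3 and 4 and WT vehicle male 1 ended all 3 calls. WT vehicle female 1 and male 3 ended those of Kcnf1 and Kcnh2, WT vehicle male 4 those of Kcnh2 and Kcnma1, and WT fluoxetine male 3 that of Kcnf1. Lithium by sex and, in HT mice, fluoxetine by sex had 0 members called by limma, edgeR and DESeq2. Of all genes limma called 0.012% (lithium, HT), 0% (lithium, WT) and 0% (fluoxetine, HT). At an unadjusted p under 0.05 the members numbered 3, 0 and 1 in the same order, beside 17.1%, 8.84% and 5.31% of all genes.

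With both sexes together, HT and WT mice given the same drug had 0 of the 30 genes called. Under vehicle limma called 0 of 30, beside 0% of all genes. EdgeR and DESeq2 also called 0 of 30, beside 0% and 0.0361% of all genes. At an unadjusted p under 0.05 there were 0 of 30, beside 6.47% of all genes. The smallest p was that of Kcnh5, an EAG channel gene. Its counts were 437, 580 and 753 in WT and 365, 505 and 648 in HT vehicle mice, and the value was -0.23 ± 0.12 (limma adjusted p = 0.772) with a 95% interval from -0.47 to 0.00. Kcnc4 at -0.12 ± 0.10 and Kcnc1 at -0.05 ± 0.05 followed (limma adjusted p = 0.904 and 0.918). The direction of both turned under an alternative, Kcnc4 to 0.0471 without the 9 libraries that stood apart and Kcnc1 to 0.0103 with the trend on G and C content removed. Under lithium 0 of 30 passed by limma, edgeR and DESeq2 (2 of 30 at an unadjusted p under 0.05, beside 11.1% of all genes). Kcnd3 at -0.22 ± 0.08, Kcnh3 at 0.20 ± 0.09 and Kcna1 at -0.22 ± 0.13 had the smallest p-values (limma adjusted p = 0.342, 0.435 and 0.526). Under fluoxetine 0 of 30 passed by the same tools (8 of 30 at an unadjusted p under 0.05, beside 11.3% of all genes), with Kcnip2 at -0.24 ± 0.06, Kcnc1 at -0.14 ± 0.05 and Kcnh2 at -0.22 ± 0.09 (limma adjusted p = 0.177, 0.282 and 0.344). Of all genes limma called 0% under either drug. The shares were 0% by edgeR and 0.223% by DESeq2 under lithium, and 0.00602% and 0.114% under fluoxetine. Under fluoxetine, females alone had 3 called genes, Kcnab1, Kcns2 and Kcnip2 (491 of all genes called), with Kcnip2 at -0.35 (limma adjusted p = 0.033), and males alone had 0; the difference between the sexes was not tested. With the log2 bulb index as a covariate Kcnip2 passed (-0.23, limma adjusted p = 0.0463; 82 of all genes). With the index itself as a covariate Kcnip2 did not pass (-0.18, limma adjusted p = 0.179). Without the 9 libraries that stood apart it did not pass either (-0.18, limma adjusted p = 0.46). The same held with only the groups compared (-0.24, limma adjusted p = 0.51). Several of the WT fluoxetine females behind the calls in females alone were among these 9 libraries. The interaction of genotype and fluoxetine called 0 of 30 by limma, edgeR and DESeq2, beside 0% of all genes. At an unadjusted p under 0.05 it had 1 of 30, beside 5.08% of all genes. Kcnip2 at -0.25 ± 0.09, Kcnc4 at 0.29 ± 0.15 and Kcnh1 at 0.25 ± 0.13 had the smallest p-values (limma adjusted p = 0.948 for each). Without the 9 libraries that stood apart Kcnc4 and Kcnh1 turned direction, to -0.0689 and -0.0608.

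The lithium changes in HT mice followed the G and C content of the transcripts. Over the 30 genes, G and C content of the longest transcript ran from 39.3% (Kcnb2) to 61.3% (Kcnh2), with a median of 49.3% against 49.5% for all tested genes. Across the 30 genes, which share the same libraries and are not independent, Spearman's rho of G and C content with the lithium change was 0.66 in HT and 0.145 in WT mice. The 4 genes that rose in HT mice were at 54.2% (Kcnf1), 57.4% (Kcnc1), 59.6% (Kcnc4) and 60.0% (Kcnh4), and those that fell at 40.1% (Kcnip4) and 44.8% (Kcna4). With the trend on G and C content removed within each library, rho in HT mice was -0.02, and limma called 0 of the 30 genes, beside 11.5% of all genes. Kcnc1 then stood at 0.13 ± 0.05 and Kcnh4 at 0.22 ± 0.10 (limma adjusted p = 0.0935 and 0.15). In WT mice the same step left the 3 calls of Kcna1 (0.43 ± 0.13), Kcnf1 (0.17 ± 0.05) and Kcnc1 (0.17 ± 0.05), with limma adjusted p-values of 0.0166, 0.0208 and 0.0205, beside 15% of all genes. For HT against WT mice under vehicle rho was -0.61, and 0.07 after the step. That comparison and lithium in HT mice use the same HT vehicle libraries, on opposite sides. Over the 13 comparisons rho ran from -0.61 to 0.66, and in those of WT mice alone it reached 0.495 (sex by fluoxetine). The relation was therefore not particular to lithium in HT mice.

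**Figure D4:**
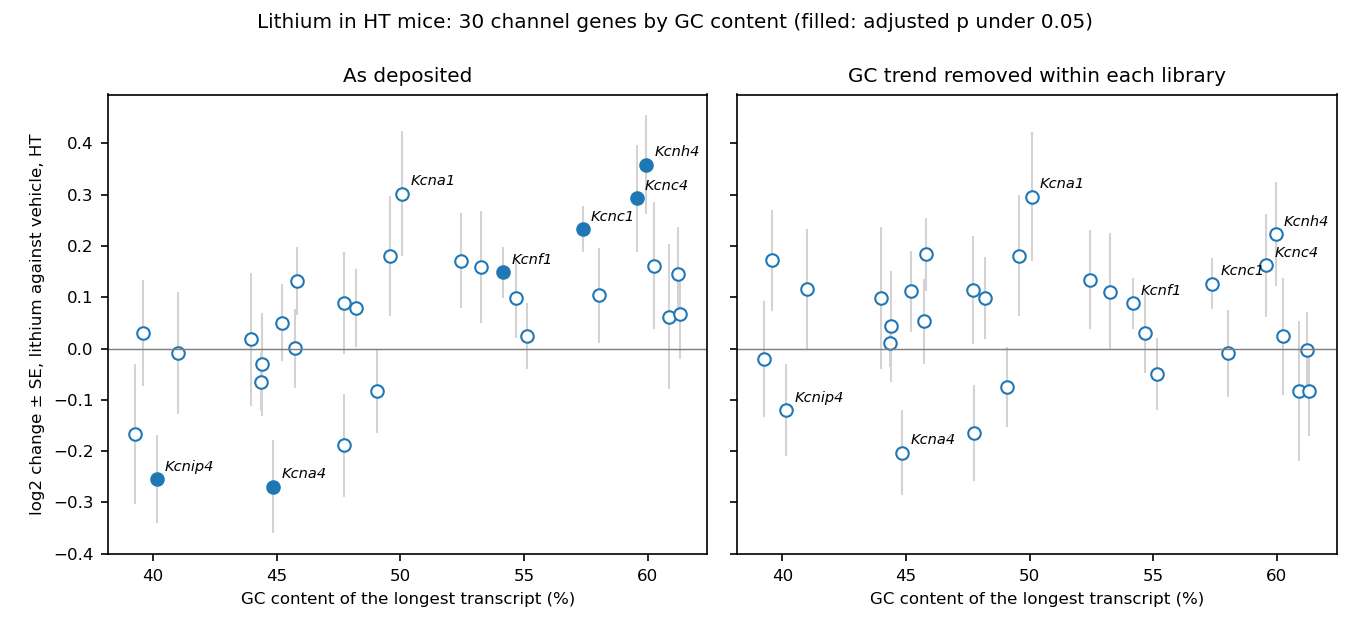
Lithium change in HT mice (log2 ± SE) of the 30 genes against the G and C content of the longest transcript, as deposited (left) and with the within-library trend removed (right); filled points have a limma adjusted p under 0.05. Spearman's rho is 0.66 on the left, with 6 filled points, and -0.02 on the right, with 0.

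Within the groups, the channel genes also followed the olfactory bulb index. A slope on the index, fitted beside the 12 group means and chosen after the libraries had been examined, passed for 27 of the 30 genes (8 higher and 19 lower with the index), beside 58.8% of all genes (29.5% higher and 29.4% lower). The median absolute slope was 0.15 per unit of index for the 30 genes and 0.07 for all tested genes. The steepest rises were those of Kcnb2 (0.26 ± 0.02) and the KChIP gene Kcnip1 (0.22 ± 0.01, limma adjusted p = 3.95e-25), followed by Kcna4 (0.18 ± 0.02), Kcnh2 (0.17 ± 0.01) and Kcnd3 (0.16 ± 0.01). The steepest falls were those of Kcns1 (-0.28 ± 0.02), the Kv beta gene Kcnab1 (-0.27 ± 0.02), Kcna6 (-0.23 ± 0.01) and Kcnc4 (-0.22 ± 0.01, limma adjusted p = 1.53e-23).

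Over the full range of the index the fitted log2 change was 0.93 for Kcnip1 and -0.95 for Kcnc4. The libraries at its ends are an example only, since they also differ in genotype, drug and sex. Kcnip1 counts were 678 in the library of lowest index (HT lithium male 1) and 1278 in that of the highest (WT fluoxetine female 4), and Kcnc4 counts in the same libraries were 2898 and 1312. Kcnc1 had a small slope of 0.04 ± 0.01 (limma adjusted p = 0.00744), and Kcnf1 (0.03 ± 0.01), Kcna3 and Kcnh5 did not pass (limma adjusted p = 0.0903, 0.582 and 0.718). Families were not uniform: the KChIP genes Kcnip1 and Kcnip2 had positive slopes (0.22 and 0.08), Kcnip3 and Kcnip4 negative slopes (both -0.15), both Kv4 genes positive slopes and both KCNQ and both Kv beta genes negative slopes. Without the 9 libraries that stood apart, 21 of the 30 slopes passed, beside 38.5% of all genes.

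**Figure D5:**
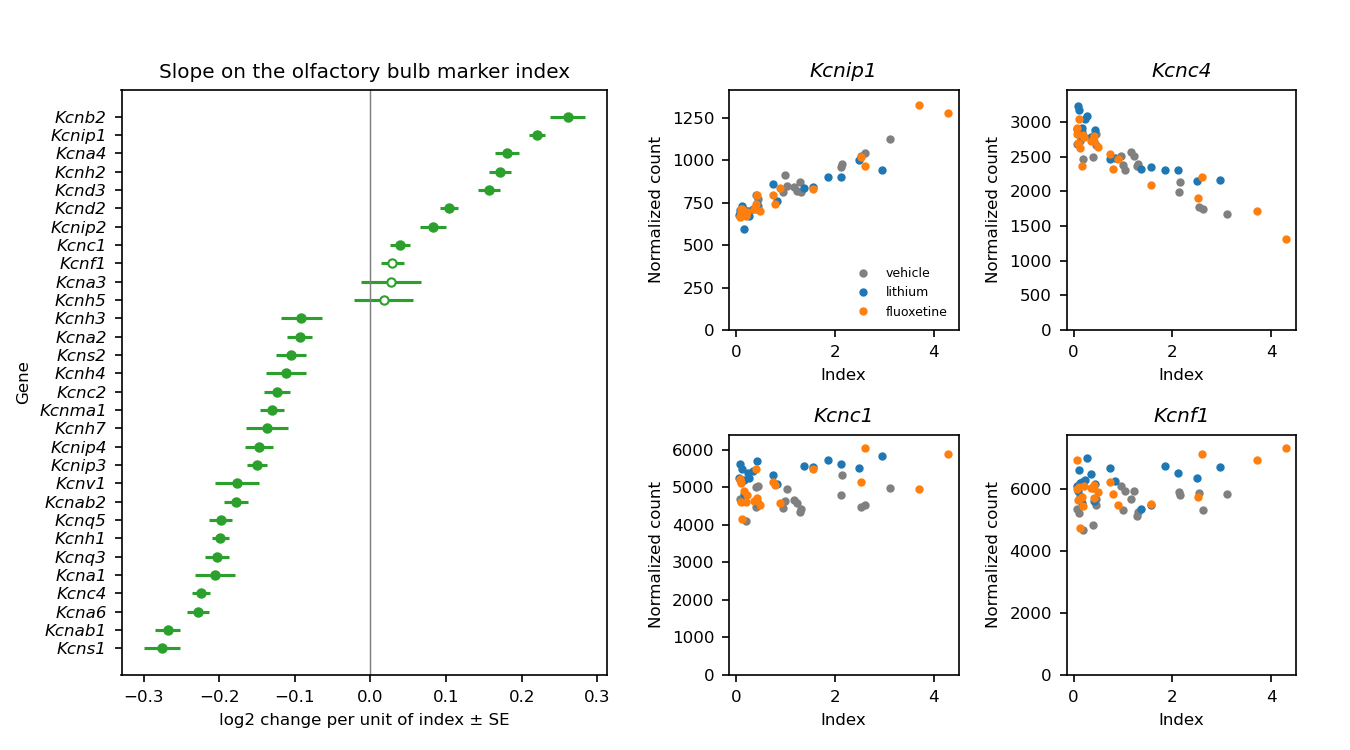
Left, the slope of each of the 30 genes on the olfactory bulb marker index (log2 change per unit ± SE, filled where the limma adjusted p is under 0.05); right, normalized counts of 4 of them against the index in all 59 libraries, coloured by drug. In the libraries of lowest and highest index Kcnip1 is 678 and 1278, and Kcnc4 is 2898 and 1312. These libraries also differ in genotype, drug and sex. Kcnc1 and Kcnf1 have slopes of 0.04 and 0.03.

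The lithium results were recomputed with this index in view. With the index as a covariate, lithium called 8 of the 30 genes in HT mice (beside 27.2% of all genes), among them the same 6, and 8 in WT mice (beside 21.7%): Kcna1, Kcna2, Kcna4, Kcnf1, Kcnc1, Kcnd3, Kcnip4 and Kcnh4. Kcnc1 then stood at 0.25 ± 0.04 in HT and 0.18 ± 0.04 in WT mice (limma adjusted p = 6.69e-06 and 0.00138), and Kcnc4 in HT mice at 0.19 ± 0.04 (limma adjusted p = 0.000102). Without the 9 libraries, HT mice had 3 called genes, Kcnc1 (0.25 ± 0.05), Kcnh4 (0.37 ± 0.08) and Kcnip4 (-0.32 ± 0.08), with limma adjusted p-values of 0.000594, 0.00263 and 0.00876, beside 11.8% of all genes. Kcnc4 stood at 0.14 ± 0.07, Kcna4 at -0.18 ± 0.08 and Kcnf1 at 0.14 ± 0.06 (limma adjusted p = 0.222, 0.136 and 0.113). WT mice had 6 called genes, the 3 of the full set with Kcna2 (0.18), Kcna4 (-0.22) and Kcnh4 (0.27), beside 19.2% of all genes. None of the WT vehicle or WT lithium libraries was among the 9. The WT comparison therefore kept the same mice, and only the shared estimate of the spread changed. The highest index in WT lithium mice was 2.49, just under the limit of 2.5. Kcnc1 was called with lithium in both genotypes with and without the 9 libraries and with the index as a covariate, and in HT mice not with the G and C trend removed.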

How the data were processed

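Stranded mRNA libraries of 59 prefrontal cortex samples were sequenced, and the authors deposited normalized counts per gene, a signal scaled by size factors. The submitters' processing notes name Salmon 0.11.2, R 3.6.0, DESeq2 1.19.11 and build GRCm38. Dividing each column by the value of 1 read gave whole reads for 100.0% of values (within 0.001), 22984556 to 35969254 per library. Depth limits precision most for the least abundant genes.

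With limma 3.58.1 (R 4.3.3; trend and robust), genes whose mean reached 10 were compared on log2(normalized count + 1), with 12 group means and two-sided tests, in 13 comparisons; a fold change on this scale understates that of low genes. Gene symbols, transcript length and G and C content came from GENCODE vM21. Groups came from the labels. The members and gene lists were chosen with earlier results of these data known. Members called in a comparison were named, or the 3 of smallest p where none was; further lists were named by up to 3 largest called changes, some of which are not reported here. The test was checked on simulated data.

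The alternatives were quantile normalization, a pseudocount of 0.5 or 5, all genes kept, only the groups compared, a replicate block, edgeR 4.0.16 and DESeq2 1.42.0 on the recovered reads, removal of the trend on G and C content or length within each library, females or males alone, leaving out the libraries that stood apart and leaving out each library. The slope on the olfactory bulb index and the index or its log2 as a covariate were added after seeing the data.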

Additional observations from a re-analysis of the deposited data

Results flagged for a closer look

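In 108 groups of 4 or 5 mice (9 channel genes in 12 groups), the highest or lowest mouse stood far from the others in 4. Chance flags about 1 in 20 such groups, so 4 of 108 is no more than chance gives. Kcna4 was 591 in HT fluoxetine male 5, beside 443 to 471 in the other males of that group. In the same library Kcnc4 was 1909, beside 2619 to 2731. Kcnc4 was 1775 in HT vehicle female 1, beside 2468 to 2682 in the other females. Kcnh4 was 459 in WT vehicle male 5, beside 559 to 585. HT fluoxetine male 5 and HT vehicle female 1 are among the 9 libraries that stood apart, with olfactory bulb indices of 2.52 and 2.54.

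The response to fluoxetine in WT mice differed between females and males by an interaction test for 3 genes: Kcnf1 by 0.32, Kcnh2 by 0.55 and Kcnma1 by -0.49 on the log2 scale. Female and male changes were 0.32 and 0.00 for Kcnf1, 0.38 and -0.17 for Kcnh2, and -0.27 and 0.22 for Kcnma1. The part of the olfactory bulb markers in these differences was not tested beyond the values with the index as a covariate and without the 9 libraries.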

How the results depend on the processing

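Counts of the 30 genes called by limma depended on the setting, and the causes were not tested. Numbers of all genes called stand in brackets, except for the ranges with each library left out. Those ranges were not set against all genes. For lithium in HT mice (6 [3374]) the count was 0 [1908] with the G and C trend removed, 3 [1957] without the libraries that stood apart, 1 [1924] in females alone, 3 [1608] in males alone and 3 to 7 with each library left out (3 without HT lithium female 1 or female 5). For lithium in WT mice (3 [2120]) it was 5 [2361] with only the groups compared, 1 [1177] with the length trend removed, 6 [3185] without the libraries that stood apart, 8 [3595] with the bulb index and 8 [3410] with its log2 as a covariate, 1 [1196] in females, 0 [437] in males and 3 to 4 with each library left out. For fluoxetine in WT mice (2 [939]) it was 0 [1064] with quantile normalization, 1 [882] without a filter, 0 [424] with only the groups compared, 1 [1153] with the G and C and 0 [527] with the length trend removed, 4 [2291] without the libraries that stood apart, 4 [2074] with the index and 10 [3126] with its log2, 5 [2220] in females, 0 [259] in males and 0 to 3 with each library left out. For sex by fluoxetine in WT mice (3 [1438]) it was 0 [435] with only the groups compared, 0 [1] with the G and C trend removed, 0 [18] without the libraries that stood apart, 5 [2008] with the log2 index and 0 to 11 with each library left out. For HT against WT mice under fluoxetine (0 [0]) it was 1 [82] with the log2 index and 3 [491] in females. Reversed values were, for HT against WT under vehicle, Kcnc1 at 0.0103 with the G and C trend removed and Kcnc4 at 0.0471 without the libraries that stood apart; for genotype by fluoxetine without those libraries, Kcnc4 at -0.0689 and Kcnh1 at -0.0608; for sex by lithium in HT mice, Kcnc4 at 0.0139 with the log2 index; and for genotype by lithium in females, Kcnd3 at 0.0244, Kcnc4 at -0.0055 and Kcnh3 at -0.0532. Of 1519 alternative values of the genes named in each comparison (not of all 30), 1379 kept direction and side of the threshold, 130 lost the call, 2 gained it and 8 reversed. In comparisons without a called member, the named genes were the 3 of smallest p. These had no call to lose and counted as kept when they stayed uncalled in the same direction. The 1379 therefore do not measure how often calls held. Same-numbered samples share only a number: 16 of 68 pairs had a correlation above 0.1 (-0.412 to 0.52). With the replicate block the counts were 6 [3386] for lithium in HT mice and 4 [1463] for sex by fluoxetine in WT mice. For fluoxetine in WT mice the count was 1 [947], with a limma adjusted p of 0.0502 for Kcnc1.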
